A study of Mus musculus with 8 samples.

Results

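The 10 genes described here encode the core proteins by which mitochondria fuse, divide and are removed by autophagy. They were taken by name, not by a cut on their values, from the 24054 gene rows of an RNA-seq table of mouse soleus muscle (SOL). Earlier results of these data were known when the genes were chosen. Mfn1, Mfn2 and Opa1 act in fusion, Dnm1l, Fis1 and Mff in fission, and Pink1, Bnip3, Bnip3l and Fundc1 in mitophagy. All 10 had a row in the table and all 10 passed the filter on low values.

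SOL was compared between 4 muscle-specific Irf4 knockout mice (MI4KO) and 4 flox mice, with 1 library per mouse. IRF4 is a transcription factor best known from immune cells and fat, and the comparison asked which muscle transcripts differ when it is deleted from muscle fibers. All 8 mice were male C57BL/6 mice fed a high fat diet according to their labels, and both groups carried floxed Irf4 alleles. The labels gave no age and no statement on exercise. In MI4KO mice Cre was expressed from the Myl1 locus, a gene of fast muscle fibers, so that fibers were targeted while blood, vessel, nerve and connective tissue cells of the muscle kept their Irf4. The study's text speaks of chow for the mice it phenotyped, and says nothing on the diet of those sequenced. Each mouse is named by its group and a number from 1 to 4.

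Values are TMM-normalized CPM, the reads on a gene as a share of its library, with libraries scaled on the assumption that most genes do not differ. Between 13417512 and 16384565 reads per mouse stood behind them, and between 183 and 28080 reads per mouse behind each of the 10 genes. Irf4 itself was at 0.686, 1.46, 1.58 and 1.68 CPM in flox mice 1 to 4 and at 0.725, 0.840, 0.266 and 1.03 CPM in MI4KO mice 1 to 4. The groups overlapped, since flox mouse 1 was lower than 3 of the 4 MI4KO mice. Irf4 differed by -0.45 on the scale of log2(CPM + 1) (SE 0.20, p = 0.040 and adjusted p = 1.0 by limma, exact permutation p = 0.114), with 4 to 23 reads per mouse. At so low a level this scale understates the change, which was -0.88 with 0.1 added in place of 1. From read counts it was -0.86 by edgeR and -0.87 by DESeq2. Myosin heavy chains fitted the labelled muscle, since slow Myh7 was at 11079 to 14577 CPM and fast oxidative Myh2 at 12401 to 17110 CPM over the 8 mice, while Myh1 was at 2406 to 7824 CPM. Myh4, the heavy chain of the fastest fibers, ranged from 34.5 to 2496 CPM, with low and high mice in both groups. In bulk muscle, fewer cells of a type and less RNA per cell cannot be told apart.

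Mitochondria of muscle form a network that is reshaped all the time. Mitofusins on the outer membrane and OPA1 on the inner membrane join neighboring mitochondria, and the dynamin-related protein DRP1, the product of Dnm1l, is drawn to the surface by adaptors such as MFF and constricts it. Damaged or surplus mitochondria are taken up by autophagosomes, either after PINK1 has accumulated on them and activated the ubiquitin ligase parkin, or through receptors of the outer membrane, such as BNIP3, its relative NIX and FUNDC1, that bind the Atg8 proteins of the autophagosome directly. SOL is a postural muscle rich in oxidative fibers and therefore in mitochondria.

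None of the 10 genes changed between MI4KO and flox SOL by the tests used. The mean was higher in MI4KO mice for 9 genes and lower for 1, Bnip3l, where 43.8% of all genes tested had a log2 fold change above 0. This count of directions was not tested. The differences in means ran from 4.35% lower for Bnip3l to 9.13% higher for Fundc1. In limma on log2(CPM + 1), a scale that understates the change of low genes, 0 of the 10 had an unadjusted p under 0.05, against 3.36% of the 11865 genes tested. In the same fit 0 passed the study's limits of p under 0.05 and 1.5-fold or more, against 0.219%. The study set these limits on its own edgeR comparison and reported more SOL genes past them than limma gave here. At an adjusted p under 0.05 there were 0 members and 0% of all genes. edgeR and DESeq2 on the recovered reads also gave 0 members at an unadjusted p under 0.05 and no gene at an adjusted p under 0.05, where 363 and 248 genes had an unadjusted p under 0.05. In 0 of the 10 genes were the groups free of overlap, against 2.07% of genes tested. With so low a background, a count of 0 among 10 genes does not set them apart from other genes.

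The intervals say more than the counts. Over the 10 genes, the 95% intervals of the fold change in limma lay between 0.850 and 1.27, so that each excluded a 1.5-fold change in either direction. The same held for 90.7% of all genes tested. The median log2 fold change of the 10 was 0.05, beside -0.01 for all genes tested. Unadjusted p-values by limma ran from 0.262 to 0.789, all adjusted p-values were 1.0, and exact two-sided permutation tests of each gene gave p from 0.200 to 0.771, where 0.0286 is the smallest p that 4 mice against 4 can give. The mean was higher in MI4KO mice for the same number of genes, 9 of 10, under library-size and median-of-ratios scaling, and for 7 of 10 without MI4KO mouse 3. Changes inside a gene's own interval were not excluded with 4 mice per group.

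**Figure D1:**
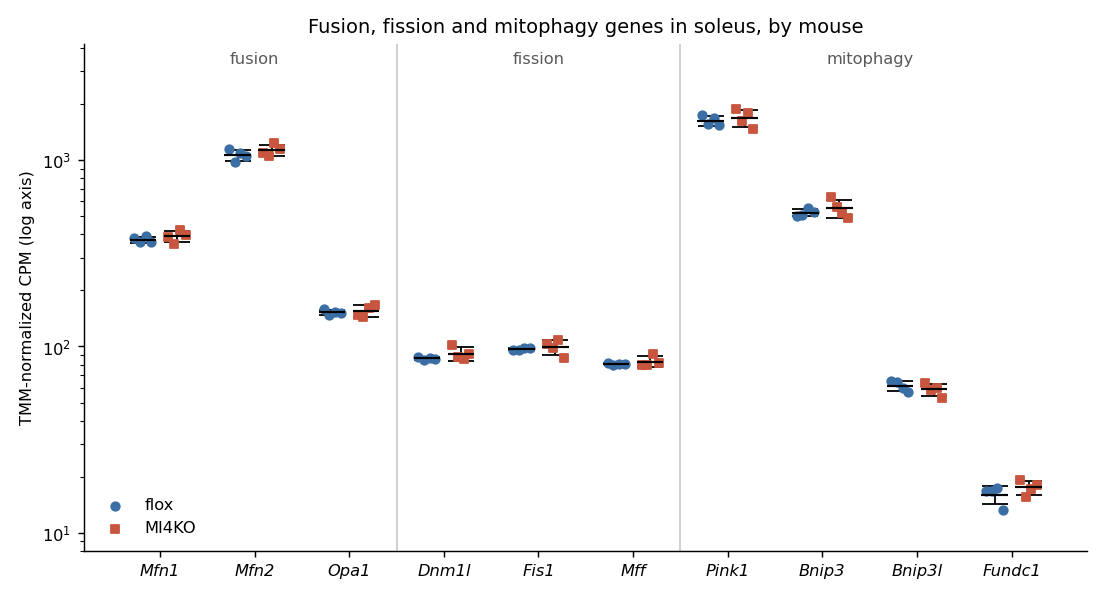
TMM-normalized CPM (log axis) of the 10 genes in each of 4 flox mice (circles) and 4 MI4KO mice (squares), in the order of the mouse numbers from left to right, with the mean and SD of each group as bars. In all 10 genes the groups overlap, and the levels run from 13.3 CPM for Fundc1 to 1875 CPM for Pink1.

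Among the fusion genes, Mfn1 (chr3:32529465-32579239, plus strand, GRCm38) and Mfn2 (chr4:147873599-147904704, minus strand) encode the outer membrane mitofusins. Mfn1 was at 380.4, 363.4, 392.3 and 362.6 CPM in flox mice 1 to 4 and at 389.1, 353.5, 419.7 and 397.8 CPM in MI4KO mice 1 to 4. The lowest and the highest value both came from MI4KO mice, mouse 2 and mouse 3. The means were 374.7 ± 14.4 (SD, n = 4) and 390.0 ± 27.6 CPM (SD, n = 4), with a log2 fold change of 0.06 (SE 0.07, p = 0.452 by limma, exact permutation p = 0.429). Mfn2 was at 1149.7, 977, 1091 and 1052 CPM in flox mice and at 1091, 1053, 1229 and 1149 CPM in MI4KO mice. Flox mouse 2 was the lowest and MI4KO mouse 3 the highest, and the other 6 mice lay between 1052 and 1149.7 CPM with both groups mixed. Its log2 fold change was 0.08 (SE 0.08, p = 0.324 by limma, exact permutation p = 0.257), from means of 1068 ± 72.4 and 1131 ± 76.8 CPM (SD, n = 4 each). The Mfn2 to Mfn1 ratio within a mouse was 2.69 to 3.02 in flox mice and 2.80 to 2.98 in MI4KO mice, so that the MI4KO range lay inside the flox range.

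Opa1 (chr16:29579334-29654884, plus strand) encodes the inner membrane GTPase that also shapes the cristae. It was at 159.1, 147.5, 153.8 and 151.4 CPM in flox mice and at 147.8, 144.6, 160.9 and 167.5 CPM in MI4KO mice. MI4KO mouse 2 was the lowest and MI4KO mouse 1 lay just above the lowest flox mouse, while MI4KO mice 3 and 4 were above all flox mice. The means of 153.0 ± 4.87 and 155.2 ± 10.8 CPM (SD, n = 4 each) differed by less than the SD of the MI4KO mice. Its log2 fold change of 0.02 (SE 0.07, p = 0.789 by limma, exact permutation p = 0.743) was the smallest of the 10, and became -0.02 without MI4KO mouse 4. Splice forms of Opa1 and cleavage of its protein, by which its activity is set, are not seen in a value per gene.

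The fission genes gave the narrowest flox groups. Dnm1l (chr16:16312230-16358959, minus strand), the gene of the DRP1 GTPase, was at 87.5, 84.8, 86.8 and 85.8 CPM in flox mice and at 102.1, 87.5, 85.2 and 91.0 CPM in MI4KO mice. MI4KO mouse 1 stood above the rest, while MI4KO mice 2 and 3 lay inside the flox range. Means of 86.2 ± 1.18 and 91.5 ± 7.51 CPM (SD, n = 4 each) gave a log2 fold change of 0.08 (SE 0.07, p = 0.283 by limma, exact permutation p = 0.200). With single mice left out it ran from 0.03 (without MI4KO mouse 1) to 0.11 (without MI4KO mouse 3). Exons of an annotated antisense gene, Gm49521, overlap those of Dnm1l, and the strand setting of the counting is not given in the sources used here, so that reads from both cannot be told apart.

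Fis1 (chr5:136953275-136966234, plus strand) encodes a tail-anchored protein of the outer membrane long named as a DRP1 adaptor. It was at 96.1, 95.7, 97.8 and 98.7 CPM in flox mice and at 102.5, 98.5, 108.3 and 86.6 CPM in MI4KO mice. The flox mice lay close together, and MI4KO mice reached beyond them on both sides, to MI4KO mouse 4 below and MI4KO mouse 3 above. The means of Fis1 were 97.1 ± 1.37 and 99.0 ± 9.18 CPM (SD, n = 4 each), with a log2 fold change of 0.02 (SE 0.08, p = 0.767 by limma, exact permutation p = 0.771). Mff (chr1:82724890-82752394, plus strand), the gene of the main DRP1 adaptor, was at 81.2, 79.8, 81.0 and 81.0 CPM in flox mice and at 79.9, 79.2, 91.3 and 81.2 CPM in MI4KO mice. All but MI4KO mouse 3 lay between 79.2 and 81.2 CPM. Mff had means of 80.7 ± 0.646 and 82.9 ± 5.65 CPM (SD, n = 4 each) and a log2 fold change of 0.04 (SE 0.07, p = 0.615 by limma, exact permutation p = 0.771). Without MI4KO mouse 3 the log2 fold changes of Fis1 and Mff were -0.02 and -0.01. Mff also has an antisense gene over its exons, C430014B12Rik, with the same limit as for Dnm1l.

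Among the mitophagy genes, Pink1 (chr4:138313409-138326307, minus strand), the gene of the kinase that marks depolarized mitochondria, was at 1751, 1553, 1682 and 1538 CPM in flox mice and at 1875, 1623, 1786 and 1464 CPM in MI4KO mice. The lowest and the highest mouse were both MI4KO mice, mouse 4 and mouse 1. Its means were 1631 ± 103 and 1687 ± 182 CPM (SD, n = 4 each), its log2 fold change was 0.04 (SE 0.09, p = 0.641 by limma, exact permutation p = 0.629), and leaving out MI4KO mouse 1 turned it to -0.01. The kinase is held low in healthy mitochondria by import and cleavage of the protein, which a transcript level does not show.

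Bnip3 (chr7:138890836-138909519, minus strand), a receptor gene known for its induction in hypoxia and in wasting muscle, was at 503.0, 506.3, 551.5 and 528.0 CPM in flox mice and at 635.8, 559.7, 520.7 and 490.1 CPM in MI4KO mice. MI4KO mice 1 and 2 were above all flox mice, MI4KO mouse 4 was below all of them and MI4KO mouse 3 lay among them. Means of 522 ± 22.4 and 552 ± 63.0 CPM (SD, n = 4 each) gave a log2 fold change of 0.07 (SE 0.09, p = 0.408 by limma, exact permutation p = 0.486). With single mice left out it ran from 0.0025 (without MI4KO mouse 1) to 0.13 (without MI4KO mouse 4). Bnip3l (chr14:66985239-67008877, minus strand), which encodes NIX, the receptor that clears mitochondria from maturing red cells, was at 65.3, 64.1, 59.6 and 57.0 CPM in flox mice and at 63.9, 58.5, 59.7 and 53.2 CPM in MI4KO mice. It was the only one of the 10 with a lower MI4KO mean, 58.8 ± 4.42 against 61.5 ± 3.87 CPM (SD, n = 4 each), and its log2 fold change was -0.06 (SE 0.08, p = 0.429 by limma, exact permutation p = 0.457). The Bnip3 to Bnip3l ratio within a mouse was 7.71 to 9.27 in flox mice and 8.72 to 9.95 in MI4KO mice, and these ranges overlapped.

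Both values carry a limit from gene copies. Of all 50-base stretches of Bnip3 transcripts, 16.5% also occur in transcripts of other genes, among them Gm16439, Gm6532, Gm9419 and Gm14506. Of those of Bnip3l, 20.8% occur in the pseudogene Bnip3l-ps. No row of the table bears the name of one of the copies named here. Reads from them could thus have been counted for Bnip3 and Bnip3l, and antisense Gm45507 overlaps exons of Bnip3. Pink1 shares 3.03% of its stretches with the small RNA genes Mir7019 and Gm27646 that lie inside it, Dnm1l 2.13% and Mfn1 0.852%, and the other 5 genes share none.

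Fundc1 (chrX:17556564-17572325, minus strand), a receptor gene whose protein responds to low oxygen by changes in phosphorylation, had the lowest values of the 10. It was at 16.8, 16.7, 17.4 and 13.3 CPM in flox mice and at 19.2, 15.5, 17.3 and 18.1 CPM in MI4KO mice. Flox mouse 4 stood below the other 7, and the remaining flox mice lay inside the MI4KO range. With means of 16.1 ± 1.84 and 17.5 ± 1.56 CPM (SD, n = 4 each), Fundc1 had the largest log2 fold change of the 10, 0.12 (SE 0.10, 95% interval -0.10 to 0.35, p = 0.262 by limma, exact permutation p = 0.314). With single mice left out it ran from 0.04 (without flox mouse 4) to 0.18 (without MI4KO mouse 2).

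**Figure D2:**
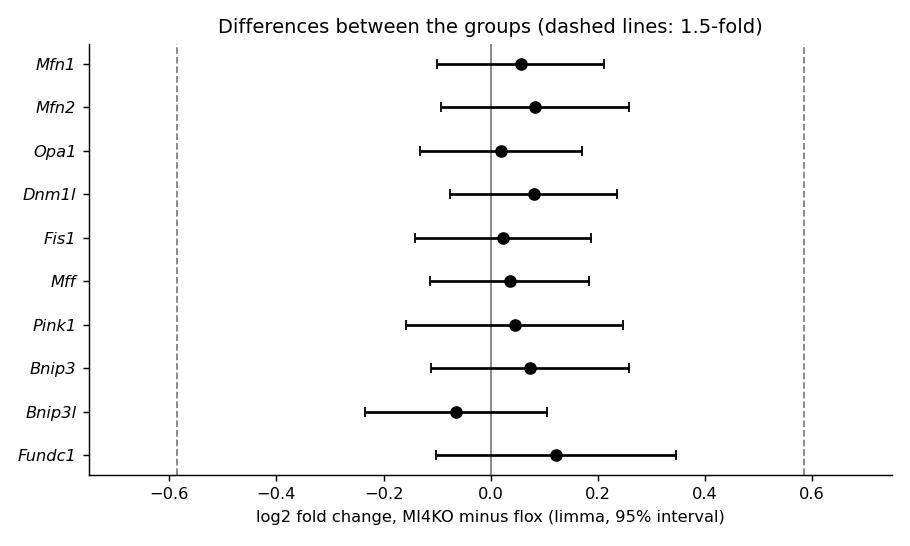
Log2 fold change of each gene, MI4KO minus flox, from limma on 4 mice per group (points) with its 95% interval (bars); dashed lines mark a 1.5-fold change in either direction. Every interval crosses 0 and lies inside the dashed lines, with bounds from -0.23 for Bnip3l to 0.35 for Fundc1.

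Levels of different genes were set side by side per kilobase of annotated exon, as CPM per kb averaged over the 8 mice. Pink1 came first at 621 ± 52.4 CPM per kb (SD, n = 8), higher than 99.5% of 11320 genes with a length, followed by Bnip3 at 237 ± 20.5 and Mfn2 at 212 ± 14.8. Mfn1 followed at 62.5 ± 3.59 and Fis1 at 57.2 ± 3.59 CPM per kb. Opa1 (19.6), Dnm1l (17.1) and Bnip3l (15.6 CPM per kb) formed the next step, and Mff (8.38) and Fundc1 (7.14 CPM per kb) came last, Fundc1 still above 66.9% of genes. Over the 8 mice, the ranges of these neighbors overlapped for Bnip3 and Mfn2, for Mfn1 and Fis1, for Opa1 and Dnm1l, for Dnm1l and Bnip3l, and for Mff and Fundc1, but within a mouse, by exon length, Mfn1 was above Fis1 and Mff above Fundc1 in 8 of 8 mice. Opa1 was above Dnm1l in 7 of 8 mice, and Bnip3 above Mfn2 and Dnm1l above Bnip3l in 6 of 8. By this length the order of these last 3 pairs thus differed between mice. The 3 genes with the highest level per kb were thus a mitophagy kinase, a mitophagy receptor and a mitofusin, while the fission genes Dnm1l and Mff were in the lower part of the order. With the longest transcript as length, 6 of the 10 genes kept their rank, Mff moved from 8.38 to 20.9 CPM per kb, past Bnip3l, and Fis1 from 57.2 to 103 CPM per kb, past Mfn1. By that length Bnip3 was above Mfn2 and Dnm1l above Bnip3l in 8 of 8 mice. Opa1 was above Dnm1l in 7 of 8, and Mfn1 above Fis1 in 0 of 8.

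**Figure D3:**
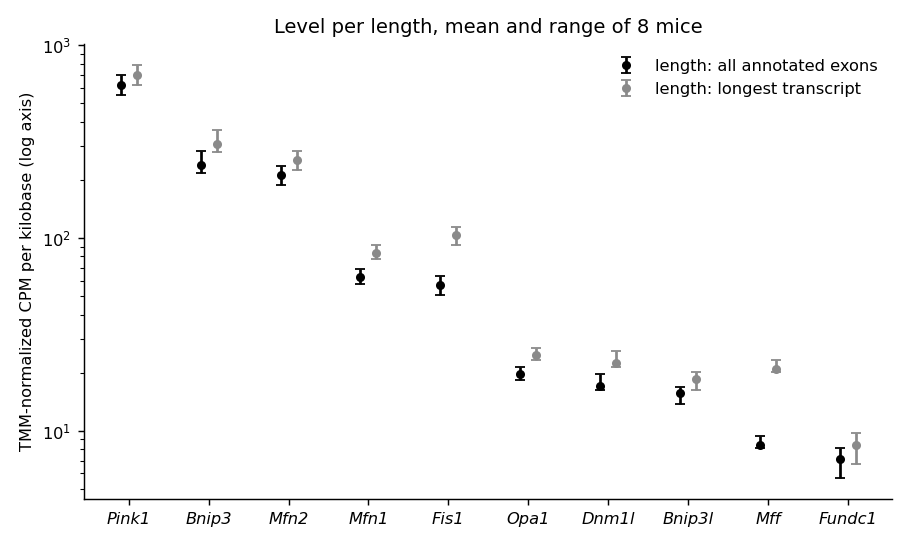
TMM-normalized CPM per kilobase (log axis) of the 10 genes, as the mean (points) and range (bars) of all 8 mice, with the length taken as all annotated exons (black) or as the longest transcript (gray). Pink1, Bnip3 and Mfn2 lie at or above 188 CPM per kb in every mouse by either length, and Mff shows the largest gap between the lengths.

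Promoter sequence is shown for Pink1 and Bnip3, the genes with the highest level per kb, because Bnip3 is a textbook target of the hypoxia-inducible factors (HIF). Sequences are from RefSeq on GRCm38.p6, read 5′ to 3′ on the strand of the gene and ending before the first annotated transcript base. Capitals mark the HIF core, ACGTG or GCGTG, on either strand.
Pink1, chr4:138326308-138326546, minus strand: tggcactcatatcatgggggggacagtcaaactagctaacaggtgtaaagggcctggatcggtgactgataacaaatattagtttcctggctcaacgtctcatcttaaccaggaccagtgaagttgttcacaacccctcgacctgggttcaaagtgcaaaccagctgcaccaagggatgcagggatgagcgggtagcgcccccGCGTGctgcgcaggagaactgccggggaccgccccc
Bnip3, chr7:138909520-138909756, minus strand: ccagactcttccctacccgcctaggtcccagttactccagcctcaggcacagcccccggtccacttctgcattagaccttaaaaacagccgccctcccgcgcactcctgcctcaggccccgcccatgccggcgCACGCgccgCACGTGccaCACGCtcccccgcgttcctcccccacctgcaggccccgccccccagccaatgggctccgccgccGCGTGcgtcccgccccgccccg

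The Bnip3 stretch of 237 bases held 5 matches to the HIF core and was 72.6% G and C, and the Pink1 stretch of 239 bases held 1 match and was 56.1% G and C. In Bnip3, 2 of the 5 matches are the same palindrome CACGTG read on both strands, and another overlaps a match to the NRF1 core, GCGCA and GCGC with any base between them. Over the 250 bases before the start, a HIF core was found in 38.6% of 32817 mouse promoter windows. It was also found in Bnip3, Pink1, Mfn2 and Dnm1l among the 9 members with a window. These 9 had 14 windows, and a member counts here if any of its windows held a match. The share of windows and the count of members are thus unlike measures, for each core. The NRF1 core, bound by a regulator of genes for mitochondrial proteins, was in 3.73% of windows, and in Bnip3, Opa1 and Pink1. An interferon response core of the kind IRF proteins bind, GAAA and again GAAA with any 2 bases between them, was in 2.97% of windows, the FoxO core GTAAACA in 3.16% and the ERR core AAGGTCA in 4.08%, each searched on both strands, and no member window held one of these 3. A match is a run of letters and not a binding site, and its lack says only that these letters are not in this window.

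Mice differed more within the MI4KO group than within the flox group. The coefficient of variation (CV) was wider in MI4KO mice for 9 of the 10 genes, all but Fundc1, while it was wider in MI4KO mice for 65.9% of all genes tested; for Mfn2 the CVs were 6.78% and 6.79%. The MI4KO CV was widest for Bnip3 (4.30% in flox and 11.4% in MI4KO mice). As a ratio to the flox CV, it was largest for Mff (0.80% in flox and 6.82% in MI4KO mice), Fis1 (1.42% and 9.27%) and Dnm1l (1.37% and 8.21%). For these 3 fission genes the flox CV lay below the 2.68% to 2.94% that counting error alone would give, so that these 4 libraries happened to lie closer together than reads drawn at random would. Over all 8 mice, the median SD on the log2 scale was 0.09 for the 10 genes and 0.15 for all genes tested, and the highest mouse was 1.15 times the lowest for Mff and 1.44 times for Fundc1.

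The mice at the extremes were mostly the same few. MI4KO mouse 3 was highest for Mfn1, Mfn2, Fis1 and Mff, and MI4KO mouse 1 was highest for Dnm1l, Pink1, Bnip3 and Fundc1. MI4KO mouse 4 was highest for Opa1 and lowest for Fis1, Pink1, Bnip3 and Bnip3l, so that its mitophagy genes other than Fundc1 were low while its fusion genes were not. Measured from each gene's mean over the 8 mice on the log2 scale, the median of the 10 genes was 0.09 in MI4KO mouse 3 and 0.08 in MI4KO mouse 1, and -0.06 in flox mouse 2. In MI4KO mouse 3, the median of 8 mitochondrial content markers (Cs, Ndufs1, Cox4i1 and others) was 0.20, and that of all genes tested was 0.07. In MI4KO mouse 1 the content markers were at -0.05, and in MI4KO mouse 2 at -0.12. The part of mitochondrial content in the values of the 10 genes was not tested.

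**Figure D4:**
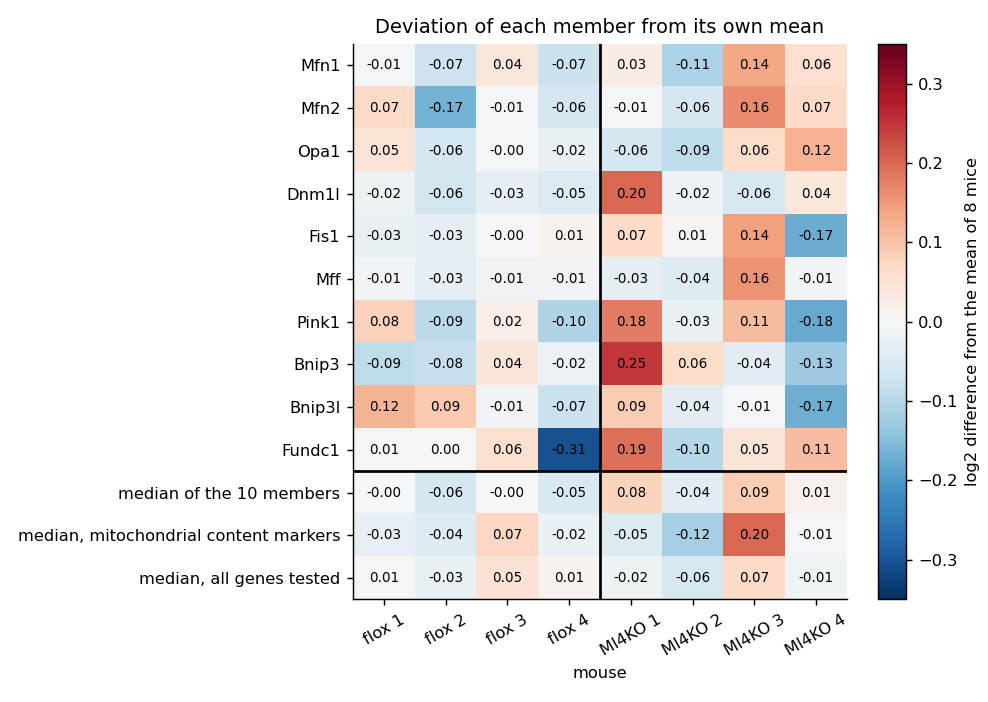
Log2 difference of each gene in each mouse from that gene's mean over the 8 mice (color and printed value), with the medians of the 10 genes, of 8 mitochondrial content markers and of all genes tested in the lowest rows. Fusion genes are high in MI4KO mouse 3, and Pink1, Bnip3 and Dnm1l in MI4KO mouse 1.

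Over the 8 mice, 32 of the 45 pairs of genes had a Pearson r above 0. Exact permutation tests gave an unadjusted p under 0.05 for 6 pairs and an adjusted p under 0.05 for 0. By Pearson r, the closest pair was Mfn1 and Mfn2 (r = 0.835, p = 0.011, adjusted p = 0.219; Spearman rho = 0.738, p = 0.046, adjusted p = 0.295, exact permutation, n = 8), and r was 0.758 without the 2 mice farthest from the median of Mfn1. By rank, it was Opa1 and Mff (rho = 0.952, p = 0.0011, adjusted p = 0.051, exact permutation), with r = 0.513 (adjusted p = 0.601) and r = 0.736 without 2 mice. Mfn2 and Opa1 came next by r (r = 0.769, adjusted p = 0.219, exact permutation; rho = 0.762, adjusted p = 0.295; r = 0.853 without 2 mice). The most opposed pair was Opa1 and Bnip3 (r = -0.61, adjusted p = 0.422, exact permutation; rho = -0.64, adjusted p = 0.393; r = -0.47 without 2 mice). All pairs share the libraries and their scaling, and the ranges of mouse numbers hold 3 and 5 mice, too few for an r within each. For Fundc1, which varied most on the log2 scale, the tested genes with the most similar pattern over the 8 mice were Fam103a1 (r = 0.96), Zfr (r = 0.96) and Lactb2 (r = 0.94), given with no test since they are the highest of all genes tested.

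Beyond the 10, 77 genes of the same machinery were taken in 6 lists, of which 76 had a row and 73 were tested. In limma 0 were higher and 1 was lower in MI4KO mice at an unadjusted p under 0.05, against 3.36% of all genes tested in either direction. None passed the study's limits (0.219% of all genes), none had groups without overlap (2.07%), and their median log2 fold change was 0.03, beside -0.01 for all genes. The 1 lower gene was Src, a tyrosine kinase that phosphorylates FUNDC1, at 2.99, 2.64, 3.15 and 3.35 CPM in flox mice and 2.76, 2.33, 1.53 and 2.36 CPM in MI4KO mice. Its groups overlapped at flox mouse 2, its log2 fold change was -0.33 (SE 0.15, p = 0.043 and adjusted p = 1.0 by limma, exact permutation p = 0.0571), and its p was not under 0.05 in 11 of 19 alternatives. Src is also expressed in many other cells of muscle tissue. The 95% interval excluded a 1.5-fold change for 72 of the 73 genes, all but Src, and for 90.7% of all genes tested.

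By list, the 13 tested regulators of fusion and OPA1 processing had a median log2 fold change of 0.04, from -0.03 for Spg7, a subunit of an inner membrane protease, to 0.11 for Fam73a, the gene of mitoguardin 1. The 14 tested fission adaptors and regulators had a median of 0.02, from -0.10 for the actin-nucleating formin Inf2 to 0.14 for Gdap1. In the PINK1-parkin pathway the median of 16 tested genes was -0.01, from -0.18 for Usp30 to 0.11 for Usp15, both deubiquitinases that oppose parkin. Park2, the parkin gene, singled out for its role after its values were seen, was at 7.63 to 9.35 CPM in flox mice and 6.79 to 9.71 CPM in MI4KO mice (log2 fold change -0.08, SE 0.12, p = 0.495 by limma, exact permutation p = 0.457). The 16 other receptors and autophagy adaptors had a median of 0.02, from -0.33 for Src to 0.12 for the ubiquitin-binding adaptor Optn. The 5 Atg8 genes lay between -0.11 for Gabarapl1 and 0.06 for Gabarap, and the 9 genes of the MICOS complex, which holds cristae junctions, between -0.16 for Chchd6 and 0.10 for Chchd3. Mitochondrial content markers were closest to 0, from -0.02 for Cox4i1 to 0.02 for Ndufs1 over 8 genes, and the direction of these last 2 turned when single mice were left out.

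**Figure D5:**
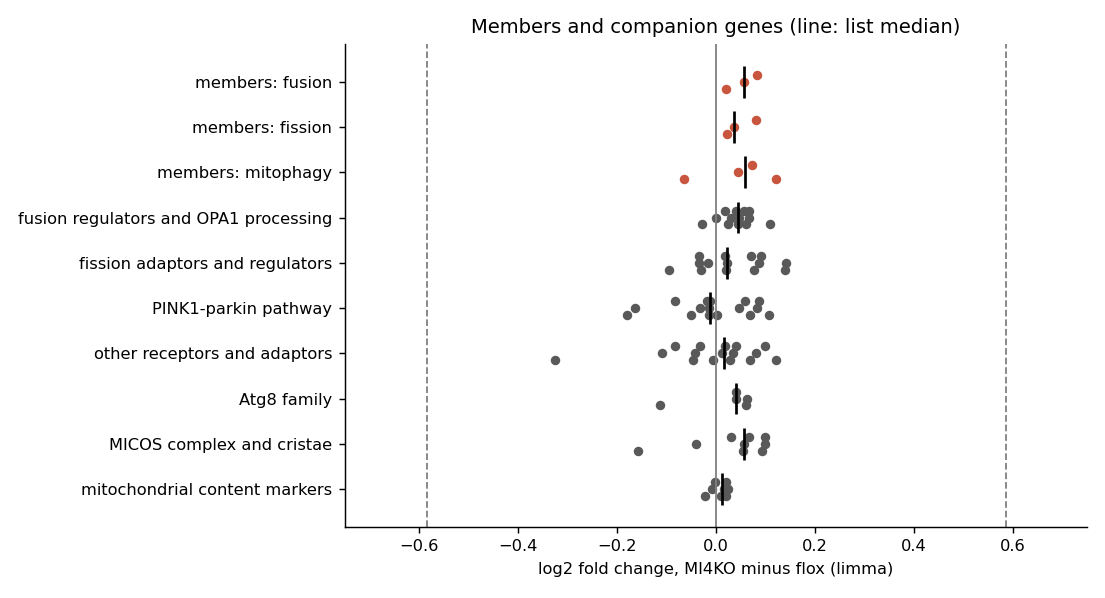
Log2 fold change, MI4KO minus flox, from limma for the 10 genes by role (red) and for 6 lists of related genes and the content markers (gray), each point a gene, with the median of each list as a vertical bar; dashed lines mark a 1.5-fold change. All points lie inside the dashed lines, and Src at -0.33 lies farthest from 0.

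The 10 genes for transcription regulators that are known to act on these pathways (Foxo1, Foxo3, Hif1a, Epas1, Ppargc1a, Ppargc1b, Esrra, Nrf1, Tfeb and Trp53) also gave 0 genes at an unadjusted p under 0.05 by limma. They ranged from -0.27 for Ppargc1b (SE 0.16, p = 0.111 by limma, exact permutation p = 0.229) to 0.40 for Foxo1 (SE 0.34, p = 0.265 by limma, exact permutation p = 0.714), a regulator of atrophy and autophagy genes that include Bnip3. Foxo1 was at 41.8, 29.3, 34.7 and 32.9 CPM in flox mice and at 29.1, 32.5, 123.6 and 37.1 CPM in MI4KO mice. MI4KO mouse 3 alone set the higher mean, and the log2 fold change was -0.07 without it. Bnip3 was at 520.7 CPM in that mouse, and a link between Foxo1 and Bnip3 was not tested.

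No marker of another cell type had an adjusted p under 0.05 by limma, but some were lower in MI4KO mice at an unadjusted p or stood apart in single mice, and their part in the values of the 10 genes was not tested. Of 4 endothelial markers 0 were higher and 2 were lower in MI4KO mice at an unadjusted p under 0.05 by limma, where 2.95% of all genes tested were lower. These were Kdr with a log2 fold change of -0.37 (p = 0.024, exact permutation p = 0.143) and Cdh5 with -0.29 (p = 0.028, exact permutation p = 0.114). The 4 endothelial markers summed to 305 to 367 CPM in flox and 226 to 324 CPM in MI4KO mice. Of 7 tested erythroid markers 0 were higher and 1 was lower at that limit, Hba-a1, with -0.28 (p = 0.029 by limma, exact permutation p = 0.143). The erythroid markers did not go 1 way, with log2 fold changes from -0.32 for Hbb-b2 to 1.28 for Hbb-bs. The 8 erythroid genes summed to 412 to 599 CPM in flox and 378 to 471 CPM in MI4KO mice. Kdr, Cdh5 and Hba-a1 each had an adjusted p of 1.0 by limma. Their unadjusted p was not under 0.05 in 6 (Kdr), 5 (Cdh5) and 7 (Hba-a1) of 19 alternatives, library-size scaling among them. Myl1, where Cre was inserted, was lower with no overlap, at 3151 to 3664 CPM in flox and 2203 to 2846 CPM in MI4KO mice (log2 fold change -0.41, SE 0.10, p = 0.001 by limma, exact permutation p = 0.0286). No marker list of slow fibers, adipocytes, macrophages, fibroblasts, Schwann cells or satellite cells held a gene at an unadjusted p under 0.05 by limma. The 6 liver genes summed to 105.7 CPM in flox mouse 1 against 0.133 to 0.763 CPM in the other mice, and 6 neutrophil genes to 10.6 CPM in MI4KO mouse 3 against 0.510 to 2.99 CPM in the others, where Ngp and Camp did not exceed 0.062 CPM in any mouse. With both of these mice left out, limma gave 0 of the 10 an unadjusted p under 0.05, and the median of the 10 log2 fold changes was 0.04.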

How the data were processed

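RNA of SOL was sequenced from 4 MI4KO and 4 flox mice. Groups and mouse numbers came from the sample titles, and mice were numbered in ascending order within a group. The authors prepared stranded mRNA libraries, sequenced single reads of 50 bases, demultiplexed them with bcl2fastq 2.17, mapped them to UCSC transcripts with Bowtie2 2.1.0, estimated expression with RSEM 1.2.15 and scaled it by TMM. The build named in the submitters' processing notes is mm10. The signal deposited by the authors is 1 TMM-normalized CPM value per gene and mouse, with column sums of 917785 to 1089208. The fold changes, p-values and FDR of the authors' own edgeR comparison, also in the table, were not used.

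Values of every mouse were whole multiples of a single step (100% of non-zero values, tolerance 0.05 reads), so reads per gene were recovered. Their totals ran from 13916450 to 16137925 per flox mouse and from 13417512 to 16384565 per MI4KO mouse. A floor of 3 reads equals 0.181 to 0.225 CPM and covers counting error only. Of 24054 genes, 6086 had no read, and 27 symbols had been turned into dates.

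Groups were compared with limma 3.58.1 (R 4.3.3) on log2(value + 1), using a trend of the variance with the mean and no covariate. The 11865 genes that reached a value of 1 in 4 or more mice were tested. P-values were adjusted by Benjamini-Hochberg over all of these, and calls used the study's limits (p under 0.05, 1.5-fold or more). Exact two-sided permutation tests used scipy 1.17.1. The study's text names littermate matings and flox littermates, but not which sequenced mice shared a litter, so litter was not modeled. The p-values set each group difference against the spread between mice. They take the mice as independent, which could not be checked. On simulated counts of 11758 genes for this comparison, limma found 83 of 93 genes changed 2-fold and 63 of 99 changed 1.5-fold at an adjusted p under 0.05, with 10 false calls. Each gene was drawn on its own, with no shift shared by the genes of a mouse. The recovery is therefore not the power of the real comparison. The alternatives were another pseudocount, other filters, 2 other scalings, limma with no trend, robust limma, a covariate for the range of the mouse numbers, edgeR 4.0.16 and DESeq2 1.42.0 on recovered reads, and mice left out.

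The 10 genes and all lists were chosen with earlier results of these data known. Named are the 10, Irf4, the fiber markers, the 3 genes most like Fundc1, and Park2. In all lists, genes with an unadjusted p under 0.05 or without overlap are named. For related genes, content markers, regulators and erythroid markers, the genes with the highest and the lowest fold change are also named. Positions and lengths are from GENCODE M21 (GRCm38), matched by symbol for 10 of 10 genes, and promoters from RefSeq (GRCm38.p6), matched for 9 of 10.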

Additional observations from a re-analysis of the deposited data

Results flagged for a closer look

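Of 88 groups of 4 mice examined, 9 held a mouse set apart from the other 3 by more than Dixon's limit, where chance gives about 1 in 20, or 4.4. Among the 10 genes, these were Mff in flox mouse 2 (79.8 CPM, low) and in MI4KO mouse 3 (91.3 CPM, high), and Fundc1 in flox mouse 4 (13.3 CPM, low).

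Among related genes, Chchd3 was low in flox mouse 4 (383.5 CPM), Optn was low in flox mouse 2 (127.3 CPM), Inf2 was low in MI4KO mouse 1 (10.6 CPM) and Foxo1 was high in MI4KO mouse 3 (123.6 CPM). The summed neutrophil markers were high in MI4KO mouse 3 (10.6 CPM), and the summed liver markers were high in flox mouse 1 (105.7 CPM).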

How the results depend on the processing

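The count of 0 among the 10 genes past the study's limits held under all 19 alternatives, and the median log2 fold change of the 10 stayed between 0.02 and 0.09 (0.02 to 0.08 with single mice left out). Of 190 values of single members, 184 kept their direction and their side of the limits. The direction turned for Opa1 without MI4KO mouse 4 (-0.018 to 0.052 with single mice left out), Fis1 without MI4KO mouse 3 (-0.022 to 0.085, and -0.026 without that mouse and flox mouse 1), Mff under the same settings (-0.011 to 0.056, and -0.0087) and Pink1 without MI4KO mouse 1 (-0.0084 to 0.11). The smallest member p was 0.0502 by limma, for Mfn2 under library-size scaling (log2 fold change 0.13), and the largest member change was 0.18, for Fundc1 without MI4KO mouse 2. The count of all genes past the limits, 26, became 71 with a pseudocount of 0.1, 13 with robust estimation, 65 with edgeR, 51 with DESeq2 and 18 to 57 with single mice left out (57 without MI4KO mouse 4).

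Scaling moved the split of all genes at an unadjusted p under 0.05 by limma. It went from 49 higher and 350 lower to 136 and 259 by median-of-ratios factors and to 263 and 132 by library size. Of the 10 genes, 9 were higher under each. In the same order, the median log2 fold change of all genes went from -0.015 to 0.0044 and 0.026. That of the 10 went from 0.05 to 0.07 and 0.09. The direction of the median of all genes thus turned under both other scalings. Among other genes it turned for Cox4i1 (0.022 by library size, 0.012 with the covariate, -0.10 to 0.013 with single mice left out, above 0 without flox mouse 3, MI4KO mouse 2 or MI4KO mouse 4), Spg7 (0.015 by library size, -0.080 to 0.023 with single mice left out, above 0 without MI4KO mouse 2), Ndufs1 (-0.028 to 0.071, below 0 without MI4KO mouse 3, and -0.036 without that mouse and flox mouse 1), Foxo1 (-0.069 to 0.61, below 0 without MI4KO mouse 3) and Inf2 (-0.15 to 0.047, above 0 without MI4KO mouse 1). Irf4 passed the limits with a pseudocount of 0.1 (-0.88) and without flox mouse 1 (-0.60), but in 7 of the 14 alternatives that tested it its p was not under 0.05: both other scalings, the covariate, edgeR, DESeq2, and limma without MI4KO mouse 1 or 3 (-0.31 without mouse 3, with the largest p of limma, 0.119). The cause of these changes was not tested. No paired analysis was possible because the labels give each mouse its own number and the groups share none. Irf4 rested on only 4 to 23 reads per mouse.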
